A study of Homo sapiens with 12 samples.

Results

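The proteasome genes were followed across 12 RNA sequencing libraries of a human lung cancer line. They are 47 of the 61510 genes in the deposited tables and were chosen by symbol. They comprise 7 genes of the 20S alpha ring (PSMA1 to PSMA7), 7 of the 20S beta ring (PSMB1 to PSMB7), 3 immunoproteasome beta subunits (PSMB8 to PSMB10), 6 ATPases of the 19S base (PSMC1 to PSMC6), 3 other subunits of the base (PSMD1, PSMD2 and PSMD4), and 8 subunits of the lid (PSMD3, PSMD6 to PSMD8 and PSMD11 to PSMD14). Also included are 3 chaperones of 19S assembly (PSMD5, PSMD9 and PSMD10), 5 chaperones of 20S assembly (PSMG1 to PSMG4 and POMP) and 5 genes for proteasome activators and the inhibitor PI31 (PSME1 to PSME4 and PSMF1). The cells were A549/DDP, a variant of the lung adenocarcinoma line A549 selected for cisplatin resistance, and the medium of every group held 1 µg/ml cisplatin (DDP). The control line expressed a hairpin with no stated target (shNC). The knockdown line expressed one against NFE2L2, the gene of the transcription factor NRF2 (shNRF2). At 70% confluence each line received DMSO or 4 µM gambogenic acid (GNA), a xanthone from gamboge resin, and was harvested 24 h later. The 4 groups had 3 libraries each, and a library is named by line, treatment and number (shNC GNA 2). The labels name 1 line per hairpin and state neither whether a line is a clone or a pool nor whether libraries of a group were separate cultures. The p-values therefore measure a spread that may be technical, and a difference between the lines cannot be told apart from one between the particular cells that carry each hairpin.

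The proteasome degrades proteins tagged with ubiquitin. Its 20S core is a barrel in which 2 outer alpha rings gate access and 2 inner beta rings hold the proteolytic sites, of which PSMB5 cleaves after hydrophobic, PSMB6 after acidic and PSMB7 after basic residues. The 19S cap binds ubiquitin chains, removes them and uses a ring of ATPases to unfold the substrate and feed it into the core. When proteasome activity falls, the membrane-bound transcription factor NRF1 (encoded by NFE2L1) is released from the endoplasmic reticulum by the segregase VCP and its partners, deglycosylated, cleaved, and raises transcription of proteasome subunit genes together through antioxidant response elements. NRF2, its relative, binds the same kind of element, and some proteasome subunit genes are known NRF2 targets.

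Each library held between 12848607 and 17192671 counts. The filter on low counts kept 46 of the 47 genes and removed PSMB8, which had 1 to 9 counts per library. NFE2L2, the target of the hairpin, stood at 74.4 to 81.6 CPM in shNC DMSO and 47.9 to 53.3 in shNRF2 DMSO, and at 83 to 90.2 against 43.6 to 47.5 under GNA, so the libraries of the 2 lines did not overlap in either treatment. CPM stands for counts per 1000000, with the library total multiplied by its TMM factor. Library shNC DMSO 1 was the least like its group (chi-square per degree of freedom 8.02 and 6.295 against them, 3.735 between the other two, and 2.278 to 5.296 in the other groups). The epithelial keratins KRT8 and KRT18 were abundant in every library (at least 637 FPKM). Alveolar type 2 markers SFTPC, SFTPB, SFTPA1 and NKX2-1 had at most 6 counts in any library. Of the leukocyte and endothelial markers, PTPRC, CD3E, CD68, PECAM1, CDH5 and VWF had at most 8, and of the fibroblast markers PDGFRA had at most 4, DCN at most 14 and COL1A1 65 to 126. KRT8 and KRT18 were lower with GNA, with log2 changes of -0.71 and -0.65 in shNC and -0.70 and -0.64 in shNRF2. The keratin KRT7 was not lower. Its mean raw counts were 19426 under DMSO and 22536 under GNA in shNC, and 15766 and 17228 in shNRF2. The epithelial marker EPCAM had only 29 to 53 counts per library. CDH1 (E-cadherin) was higher in shNRF2 under DMSO, with a log2 difference of 0.95. Their part in the proteasome results was not tested.

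Sequence near the start sites was examined because NRF1 and NRF2 bind antioxidant response elements. RefSeq promoters (GRCh38.p14, 250 bases before to 50 after the start) were found for 41 of the 47 genes, 50 promoters in all. The core of the antioxidant response element, TGACNNNGC on either strand, was in 15 of the 50 promoters (30.0%), against 13.3% of 35116 promoters in the table. CCAAT, the site of the NF-Y factor, was in 38.0% against 34.6%, on either strand. A heat shock element of 3 alternating 5-base units, with GAA or TTC at their centres, was in 0 of 50, against 0.49% of all promoters. The 4 windows that follow lie upstream of the start and in no exon of GENCODE 29, and are examples from 4 subcomplexes. With GNA in shNRF2, PSMB3 and PSMD12 were called higher, PSME1 was called lower and PSMB9 was not called. Windows of PSMD9 met the same conditions and are not shown. Capitals mark the 9 bases of the match, with 20 bases on each side. In PSMB9 the match is on the opposite strand.
PSMB3, chr17:38752617-38752665, plus strand: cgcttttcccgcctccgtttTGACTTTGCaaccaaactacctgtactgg
PSMD12, chr17:67366714-67366762, minus strand: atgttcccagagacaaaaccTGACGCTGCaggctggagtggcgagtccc
PSMB9, chr6:32854024-32854072, plus strand: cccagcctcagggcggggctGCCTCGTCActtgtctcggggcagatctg
PSME1, chr14:24136088-24136136, plus strand: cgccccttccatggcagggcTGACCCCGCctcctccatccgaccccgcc
PSMB3 encodes a beta ring subunit, PSMD12 a lid subunit, PSMB9 an immunoproteasome subunit and PSME1 an activator. The matches begin 104, 165, 148 and 86 bases before the RefSeq start. Among genes with a promoter in the table, the core was in 6 of 20 that were called higher with GNA in shNRF2, in 3 of 3 called lower and in 6 of 17 that were not called. It was in 9 of 28 genes called lower in the shNRF2 line under DMSO and in 6 of 12 not called. A match is a description of letters and not a bound site, and the shares by call were not tested.

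The proteasome genes spanned more than 3 orders of magnitude in level. FPKM values, which are counts divided by gene length and library total, were used to order genes. PSME1, which encodes a subunit of the 11S activator, had the highest mean over the 12 libraries at 244 FPKM, followed by the alpha ring gene PSMA7 at 221, the ATPase PSMC3 at 132 and the base scaffold PSMD2 at 122. At the low end stood the immunoproteasome subunit PSMB8 at 0.0942, PSMA2 at 0.0948, the chaperone PSMG2 at 0.285 and PSMD9 at 0.393. The lengths behind these values were long for some genes. The value implied by counts and FPKM was 15795 bases for PSMD1, 12490 for PSMG2, 8378 for PSMA2 and 4921 for POMP. The union of GENCODE 29 exons holds 5187, 3356, 5336 and 1428, so the order of genes is approximate. Exons of PSMA1, PSMA2, PSMA6, PSMB10 and PSMD9 share 14.1% to 34.8% of their bases with other genes, for each at least 1 a coding gene on the same strand, and 75.8% of the exon bases of PSMC1 are opposite NRDE2. For PSMC5 19.5% are opposite FTSJ3, which had 6753 to 10377 counts per library against 2389 to 3703 for PSMC5. For PSMD7 30.7% are opposite AC009120.2 (23 to 63 counts), and for PSME3 5.82% are opposite BECN1 (1808 to 2771). Other members also overlap genes on the opposite strand. How the authors' counting assigned such reads is not given in the sources used here, so the levels of these genes are uncertain. PSMA2 had 4 to 22 counts per library, far below the other alpha ring genes, although every 20S core holds its product.

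**Figure D1:**
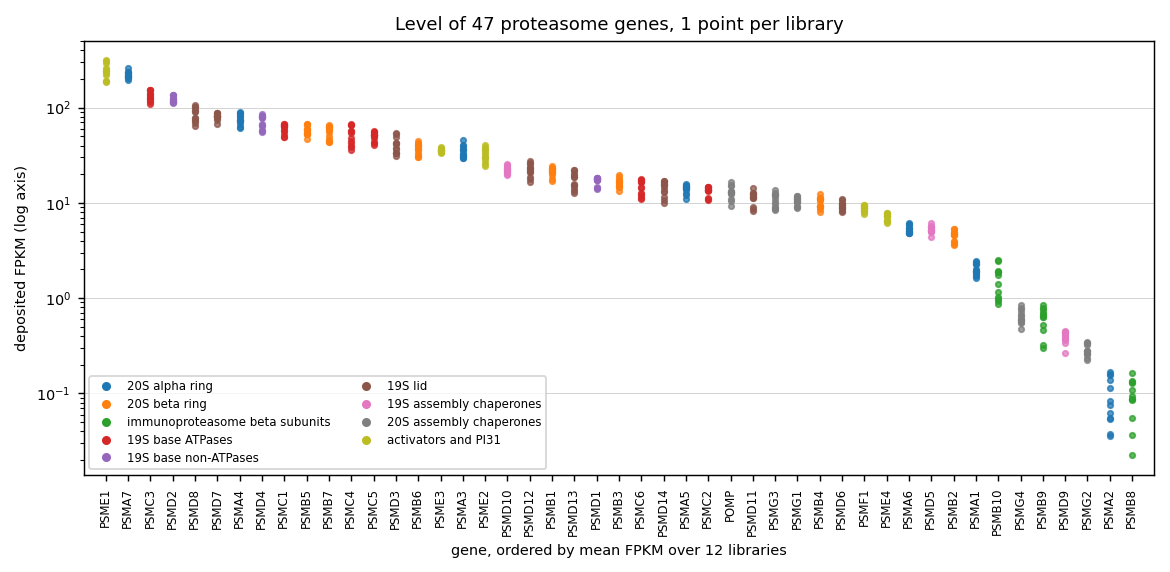
Level of each of the 47 genes in deposited FPKM (log axis), 1 point per library, ordered by the mean over 12 libraries and coloured by subcomplex. PSME1 and PSMA7 are at the top and PSMA2 and PSMB8 at the bottom, and the spread over libraries is small beside the spread over genes.

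The immunoproteasome subunits replace the catalytic beta subunits in immune and interferon-treated cells (PSMB9 for PSMB6, PSMB10 for PSMB7 and PSMB8 for PSMB5), and were scarce here. PSMB8 was at 0.199 ± 0.0393% of the FPKM of PSMB5 (mean ± SD, n = 3) in shNC DMSO and between 0.0410% and 0.244% over the 9 libraries of the other groups. PSMB9 was at 2.29 ± 0.0559% of PSMB6 under DMSO and 1.20 ± 0.416% under GNA in the control line, and at 2.17 ± 0.403% and 1.18 ± 0.330% in the knockdown line. PSMB10 was at 4.05 ± 1.17% of PSMB7 under DMSO and 3.20 ± 0.861% under GNA in the control line, and at 2.33 ± 0.317% and 1.95 ± 0.799% in the knockdown line. Each constitutive subunit thus exceeded its counterpart in every library. These 3 genes had 1 to 64 counts per library, which limits the precision of their changes.

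Summed over the 47 genes, the proteasome took 0.6085% to 0.6576% of the counts of the control line under DMSO and 0.6238% to 0.6564% under GNA, and in the knockdown line 0.5242% to 0.5616% and 0.6500% to 0.6562%. The 3 shNRF2 DMSO libraries lay below every other library. In bulk RNA, fewer cells with a high level and less RNA per cell cannot be told apart. The subcomplexes followed different courses. The 19S lid summed (mean ± SD, n = 3) to 1239 ± 62.5 CPM under DMSO and 1288 ± 23.2 under GNA in the control line, and to 1050.2 ± 50.3 and then 1419 ± 15.5 in the knockdown line. The 19S ATPases summed to 1261 ± 67.8 CPM under DMSO and 1279.6 ± 44.2 under GNA in the control line, and to 1039.8 ± 40.6 and then 1366 ± 16 in the knockdown line. The beta ring summed to 366 ± 31.4 CPM under DMSO and 369 ± 17.1 under GNA in the control line, and to 301 ± 17.4 and then 363 ± 12.5 in the knockdown line. For these 3 the lowest sums were in shNRF2 DMSO. The alpha ring summed to 1344 ± 81.5 CPM under DMSO and 1162 ± 73.3 under GNA in the control line, and to 1022 ± 46.6 and then 1077 ± 2.43 in the knockdown line. Its lowest sums were also in shNRF2 DMSO. The activators and PI31 summed to 1099 ± 38.2 CPM under DMSO and 856 ± 32.9 under GNA in the control line, and to 904 ± 30.5 and then 748 ± 9.68 in the knockdown line, and here the lowest sums were in shNRF2 GNA. These sums weight abundant genes most and were not tested.

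**Figure D2:**
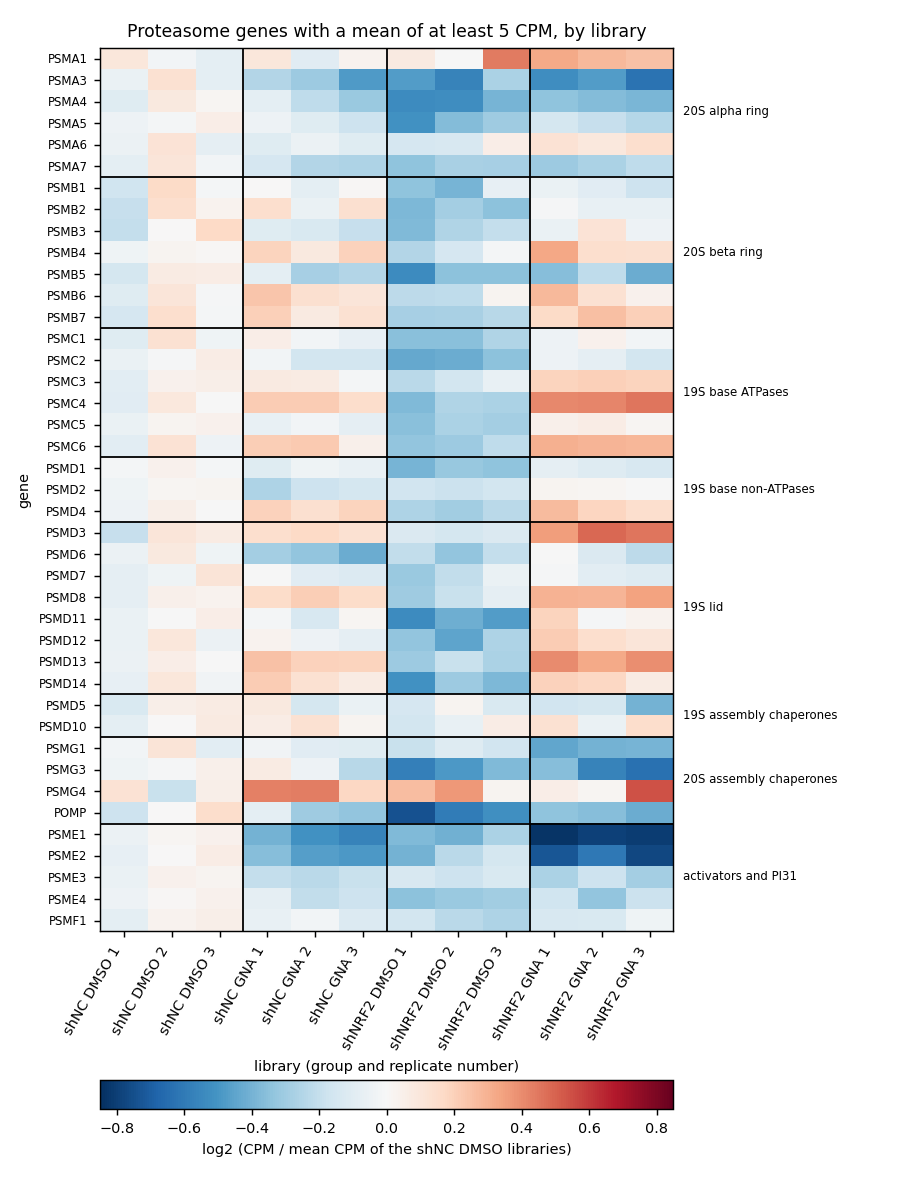
log2 ratio of CPM in each library to the mean CPM of the 3 shNC DMSO libraries, for the 41 genes with a mean of at least 5 CPM (rows, by subcomplex; columns, libraries by group). Blue is lower and red higher; the shNRF2 DMSO columns are mostly blue, the 19S rows turn red in shNRF2 GNA, and PSME1 and PSME2 are darkest blue in shNRF2 GNA (lowest value -0.83).

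In the shNRF2 line, GNA raised the RNA of the 19S cap and of part of the 20S core. Of 46 tested genes 23 were higher and 3 lower with GNA than with DMSO, 50% and 6.52%, where 16.7% and 17% of all 15653 tested genes were called higher and lower. All 6 ATPases, all 3 other base subunits and 6 of 8 lid subunits were higher (15 of 17 cap genes, median log2 change 0.46), as were 7 of 14 core genes (2 of 7 alpha and 5 of 7 beta, medians 0.12 and 0.29). Of the remaining genes POMP was higher, and PSME1, PSME2 and PSMG1 were lower. The small lid subunit SEM1 and the ubiquitin receptor ADRM1 were listed with related genes and are not among the 17 cap genes. In shNRF2 ADRM1 was higher with GNA, and SEM1 was not called. Mean raw counts of SEM1 were 5144 under DMSO and 5110 under GNA. These counts are not scaled to the library totals, so they do not give the direction of its change. The median over the 46 was 0.22 and that over all tested genes 0.0098. The largest rises of abundant genes were in PSMC4 (0.73), PSMD13 (0.63), PSMC6 (0.58), PSMD3 (0.57), PSMD11 (0.55) and PSMD14 (0.55), that is 65.6% to 45.9% higher than in DMSO. A value such as 0.73 ± 0.055 is a log2 fold change with its standard error, from 3 libraries a group. The standard error was derived from the F statistic of edgeR's fit, in which all 12 libraries share the estimate of spread. Calls were made at a Benjamini-Hochberg adjusted p under 0.05 over all tested genes, with edgeR's quasi-likelihood test. None of the core or cap genes was called lower by edgeR, and none had an unadjusted p under 0.05 in that direction or was called by DESeq2 or limma. Scaling by library totals gave 30 higher and 2 lower. Of the 26 calls 19 held in all 16 alternatives, and the others were those of PSMA2, PSMA5, PSMB2, PSMB3, PSMB6, POMP and PSMG1.

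In the control line the same treatment changed fewer proteasome genes and in both directions. GNA left 5 of 46 higher and 11 lower in shNC (10.9% and 23.9%, against 14.6% and 16.1% of all tested genes), so the share called higher was near that of all genes. Higher were PSMD13 (0.21), PSMC4 (0.19), PSMD8 (0.17), PSMD4 (0.17) and PSMC6 (0.16), all of the cap. Lower were PSMB9 (-0.77), PSME1 (-0.49), PSME2 (-0.44), PSMD6 (-0.35), PSMA3 (-0.34) and POMP (-0.24), with PSMA4, PSMA7, PSMB5, PSMD2 and PSME3 between -0.22 and -0.19. The median was -0.049. These counts depended on the scaling. With library totals 12 genes that were not called changed from a negative to a positive value. With these totals in place of TMM the split was 13 higher and 4 lower and the median 0.054, while the median of all genes moved from 0.017 to 0.12. The 4 still called lower were PSMA3, PSMD6, PSME1 and PSME2. limma on log2(FPKM + 1) gave 11 and 5. Without shNC DMSO 1 or shNC GNA 2 the count called higher was 3, without shNC DMSO 2 it was 8, and without shNC GNA 3 the count called lower was 7. No 20S core gene was called higher by edgeR or DESeq2 in shNC, 3 of 14 were at an unadjusted p under 0.05, and limma called 3 on log2(FPKM + 1) and library totals 4.

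**Figure D3:**
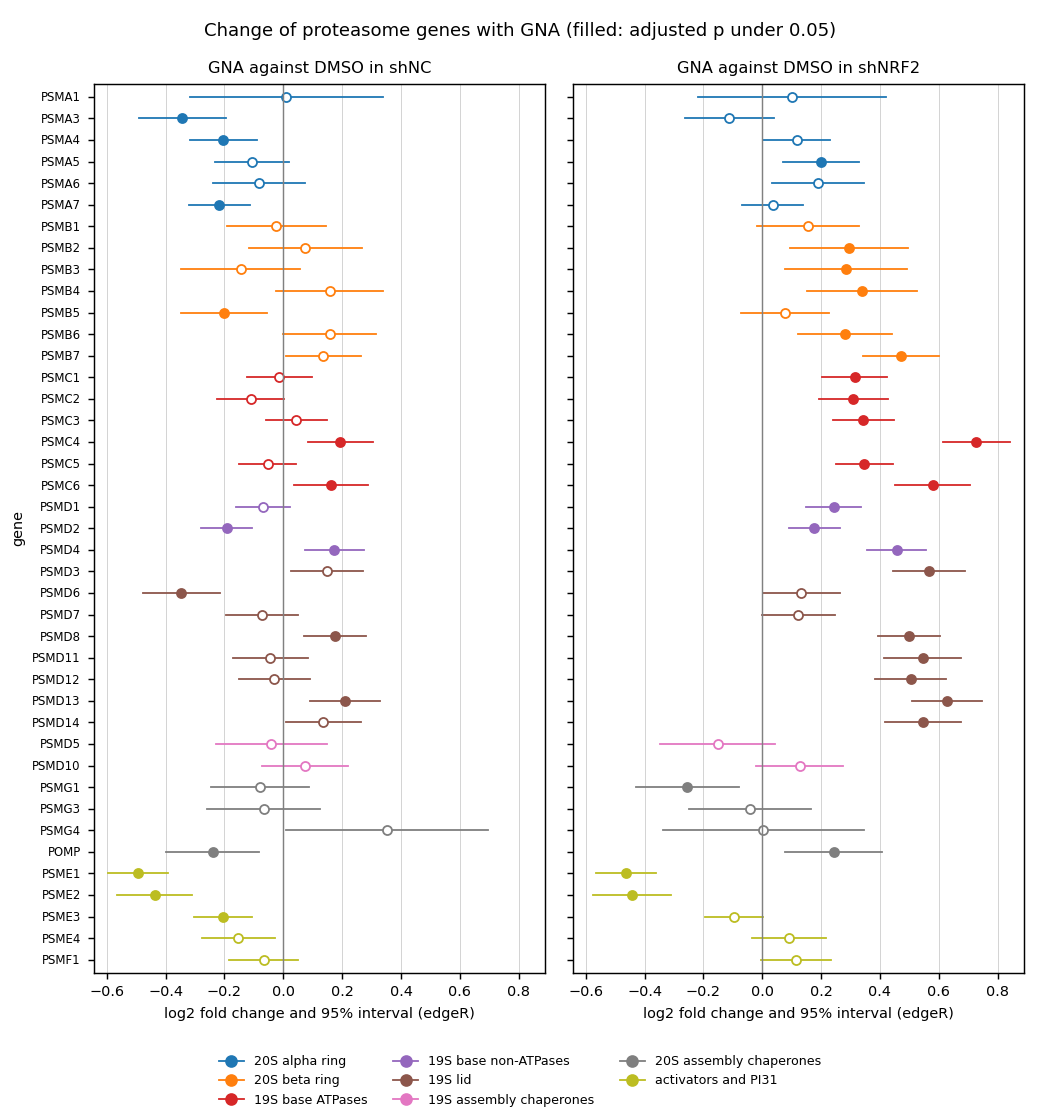
log2 fold change of each gene with GNA against DMSO (point) and 95% interval (line) in shNC (left) and shNRF2 (right), for the genes with a mean of at least 5 CPM, coloured by subcomplex; filled points were called at an adjusted p under 0.05. In the right panel the 17 listed 19S base and lid genes lie between 0.12 and 0.73, while PSME1 and PSME2 lie below -0.4 in both panels.

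The difference between these 2 responses was itself tested. For 21 of 46 genes the response to GNA was higher in shNRF2 than in shNC, and for 0 it was lower (45.7% against 3.58% of all tested genes called higher, and 3.24% lower). The 21 were 16 of 17 cap genes (all but PSMD7), 3 of 7 alpha ring genes (PSMA4, PSMA5 and PSMA7), PSMB7 and POMP. SEM1 and ADRM1, which are outside the 17, were not called. The largest differences were in PSMD11 (0.59 ± 0.089, edgeR adjusted p = 9.51e-05), PSMD12 (0.53 ± 0.083, edgeR adjusted p = 0.000129), PSMC4 (0.53 ± 0.077, edgeR adjusted p = 4.93e-05), POMP (0.48 ± 0.11), PSMD6 (0.48 ± 0.090) and PSMC2 (0.42 ± 0.079). The median was 0.28 over the 46 genes and -0.0048 over all genes. No activator, immunoproteasome or 19S assembly gene was called, and 2 activator genes were at an unadjusted p under 0.05. On the side lower in shNRF2, no member had an unadjusted p under 0.05, and DESeq2 and limma also called 0. DESeq2 called 21 higher. limma called 13, all of the cap, and not PSMA4, PSMA5, PSMA7, PSMB7, PSMC1, PSMC3, PSMD8 or POMP. The response in shNRF2 is measured from shNRF2 DMSO, and the difference uses all 4 groups.

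The 2 lines were then compared within each treatment. Under DMSO, 33 of 46 proteasome genes were lower in shNRF2 than in shNC (71.7%, against 18.3% of all tested genes) and 0 were higher (16.8% of all tested genes were). The median was -0.26, and that of all genes 0.011. Lower were 16 of 17 cap genes, 9 of 14 core genes, all 5 activators and PI31, POMP, PSMG3 and PSMB10, and 0 of 3 19S assembly chaperones, which by no tool and at no unadjusted p under 0.05 were called either way. The largest falls were in PSMB10 (-1.03), POMP (-0.62), PSMA4 (-0.48), PSMG3 (-0.48), PSMD11 (-0.48) and PSMA3 (-0.43). No member was higher at an unadjusted p under 0.05 either, and none by DESeq2 or limma. Of the 33 calls 26 held in all 16 alternatives, and the others were those of PSMB1, PSMB2, PSMB3, PSMC3, PSMD7, PSMD8 and PSME3. Without shNC DMSO 2, PSMB1, PSMB2, PSMB3, PSMC3 and PSME3 were not called (edgeR adjusted p = 0.0642 to 0.135), and without shNRF2 DMSO 1, PSMB1, PSMB3, PSMC3, PSMD7 and PSMD8 were not (edgeR adjusted p = 0.0646 to 0.149). Under GNA most of these genes were no longer called lower. There 7 genes were higher in shNRF2 and 6 lower (15.2% and 13%, against 12.8% and 13.3% of all genes, shares close to the background). All 7 that were higher belong to the cap: PSMD3 (0.29), PSMC4 (0.23), PSMD6 (0.23), PSMD2 (0.20), PSMD12 (0.19), PSMD13 (0.16) and PSMC3 (0.15). The 6 that were lower were PSMG3 (-0.46), PSMG1 (-0.33), PSME1 (-0.32), PSME2 (-0.26), PSMA3 (-0.20) and PSMA4 (-0.16). Library totals gave 9 higher and 5 lower, and without shNC GNA 3 or shNRF2 GNA 1 the count called higher was 3. Of the 13 calls, those of PSMA3, PSMA4, PSMC3, PSMD6, PSMD12 and PSMD13 were all lost without shNRF2 GNA 1 (edgeR adjusted p = 0.0579 to 0.11), and PSMC3, PSMD6, PSMD12 and PSMD13 also without shNC GNA 3 (edgeR adjusted p = 0.0503 to 0.126). Some were also lost without other GNA libraries, and the other 7 calls held in all 16 alternatives. The DMSO comparison of the lines and the response to GNA in shNRF2 share the shNRF2 DMSO libraries, so their values for a gene are not independent.

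**Figure D4:**
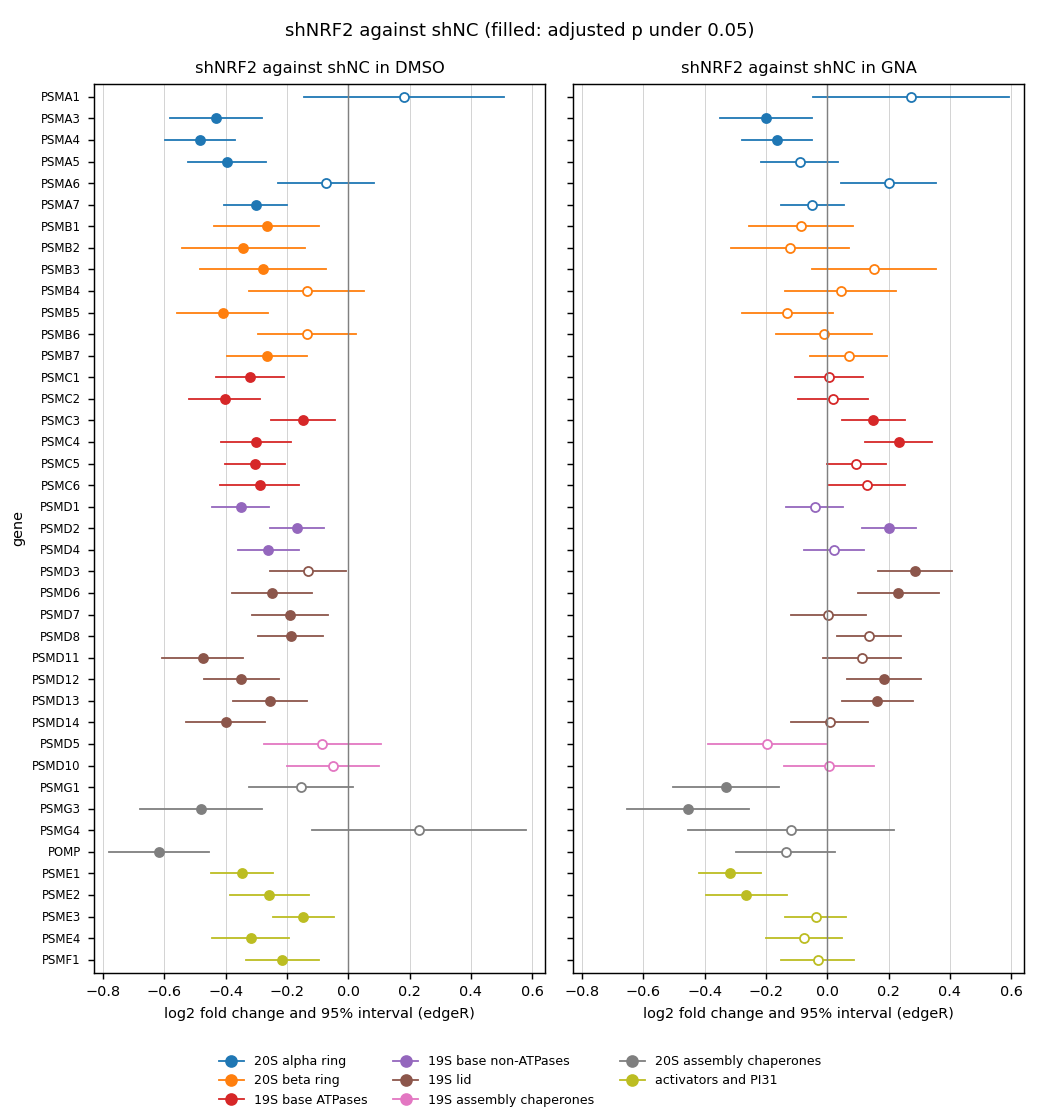
log2 fold change of shNRF2 against shNC (point) and 95% interval (line) under DMSO (left) and GNA (right) for the genes with a mean of at least 5 CPM, coloured by subcomplex; filled points were called at an adjusted p under 0.05. Under DMSO nearly all points lie below 0, and under GNA the 17 listed 19S base and lid genes lie from -0.042 to 0.29.

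The ATPases of the 19S base unfold the substrate. PSMC4 (chr19:39971005-39981441, plus strand, GRCh38) had the largest rise among them. PSMC4 measured 113, 129 and 121 CPM in control cells under DMSO and 141, 141 and 134 under GNA, against 93.5, 101 and 100.3 (DMSO) and 161, 161 and 166 (GNA) in knockdown cells. The 4 groups did not overlap, with shNRF2 DMSO lowest and shNRF2 GNA highest. With GNA it was 65.6% higher in shNRF2, 0.73 ± 0.055 (edgeR adjusted p = 3.54e-11), and 14.4% higher in shNC, 0.19 ± 0.054 (edgeR adjusted p = 0.0074). For PSMC6, the DMSO libraries read 97.6, 113 and 101 CPM in the control line and 82.3, 84 and 89.4 in the knockdown line, and the GNA libraries 120.3, 122 and 107 (control) and 128, 127 and 126 (knockdown). PSMC6 also had its highest libraries in shNRF2 GNA, and changed by 0.58 ± 0.062 (edgeR adjusted p = 2.55e-08) there and by 0.16 ± 0.061 (edgeR adjusted p = 0.0474) in shNC, a call that DESeq2 did not make (adjusted p = 0.062) and that was lost when any one was left out of shNC DMSO 1, shNC DMSO 3, shNC GNA 1 or shNC GNA 2 (edgeR adjusted p = 0.14 to 0.202). PSMC2 stood at 122, 126 and 132 CPM under DMSO and 125, 114 and 114 under GNA in the control line, and at 93.5, 94.6 and 99.3 (DMSO) and 123, 120.0 and 114 (GNA) in the knockdown line. PSMC2 had the smallest rise of the 6 in shNRF2, 0.31 ± 0.056 (edgeR adjusted p = 8.28e-05), with a change of -0.11 ± 0.055 (edgeR adjusted p = 0.135) in shNC. Its libraries in shNRF2 GNA overlapped those of shNC GNA, and the difference between the lines was -0.40 ± 0.056 in DMSO and 0.018 ± 0.056 (edgeR adjusted p = 0.862) in GNA. A processed copy of PSMC1, counted as a gene of its own, had 8.99% of its counts. PSMC1, PSMC3 and PSMC5 rose by 0.31, 0.34 and 0.35 in shNRF2. In shNC they changed by -0.013, 0.044 and -0.053 and were not called, and with library totals PSMC1 (0.090) and PSMC5 (0.049) turned positive and PSMC3 was called higher.

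Of the other base subunits, PSMD1 and PSMD2 are the large scaffolds and PSMD4 is a ubiquitin receptor. PSMD2 went opposite ways in the 2 lines. PSMD2 measured 627, 650.4 and 653 CPM in control cells under DMSO and 537, 570.4 and 581 under GNA, against 575, 568 and 576 (DMSO) and 653, 649.7 and 641 (GNA) in knockdown cells. Under DMSO all shNC libraries were above all shNRF2 libraries, and under GNA the order was reversed. It fell by 12.5% in shNC, -0.19 ± 0.043 (edgeR adjusted p = 0.000949), and rose by 13.1% in shNRF2, 0.18 ± 0.043 (edgeR adjusted p = 0.00179), and the difference of the responses was 0.37 ± 0.060 (edgeR adjusted p = 0.000229). The fall in shNC was not called with library totals (edgeR adjusted p = 0.0973) or by limma (adjusted p = 0.0611). For PSMD4, the DMSO libraries read 203, 216 and 209 CPM in the control line and 175, 171 and 178 in the knockdown line, and the GNA libraries 240.1, 229.6 and 238 (control) and 252, 237 and 231 (knockdown). PSMD4 was higher with GNA in both lines, by 0.17 ± 0.048 (edgeR adjusted p = 0.00694) in shNC and 0.46 ± 0.049 (edgeR adjusted p = 2.27e-08) in shNRF2, and no library of a line under GNA overlapped one under DMSO. PSMD1 rose in shNRF2 by 0.24 ± 0.045 (edgeR adjusted p = 0.000106) and changed by -0.068 ± 0.045 (edgeR adjusted p = 0.273) in shNC (0.035 with library totals).

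The lid carries the deubiquitinase PSMD14 among structural subunits. PSMD13 (chr11:236546-252984, plus strand), a structural lid subunit, rose most. PSMD13 stood at 67.6, 72.7 and 69.8 CPM under DMSO and 83.2, 80.2 and 79.7 under GNA in the control line, and at 56.5, 61.6 and 58.2 (DMSO) and 92.4, 87.5 and 92.3 (GNA) in the knockdown line. The change with GNA was 0.63 ± 0.058 (edgeR adjusted p = 1.82e-09) in shNRF2 and 0.21 ± 0.057 (edgeR adjusted p = 0.00623) in shNC, with no overlap between GNA and DMSO libraries in either line. PSMD11 (chr17:32444261-32483318, plus strand), which clamps the lid to the core, had another course in the control line. PSMD11 measured 82.6, 85.8 and 89 CPM in control cells under DMSO and 84.9, 78 and 86.9 under GNA, against 59.2, 64.2 and 61.9 (DMSO) and 97.7, 85.4 and 87.4 (GNA) in knockdown cells. Its shNC libraries overlapped between treatments (-0.044 ± 0.062, edgeR adjusted p = 0.648, and 0.059 with library totals), while shNRF2 DMSO lay below every other library and GNA brought it up by 0.55 ± 0.064 (edgeR adjusted p = 1.25e-07). The difference of the responses, 0.59, was the largest of the 46 genes. For PSMD14, the DMSO libraries read 99.6, 111 and 102 CPM in the control line and 73, 84.2 and 80.2 in the knockdown line, and the GNA libraries 121, 114 and 109 (control) and 119, 118 and 109 (knockdown). For PSMD14 the rise in shNRF2 was 0.55 ± 0.063 (edgeR adjusted p = 9.15e-08), and in shNC the change was 0.14 ± 0.062 (edgeR adjusted p = 0.0961). PSMD3 rose by 0.57, PSMD12 by 0.50 and PSMD8 by 0.50 in shNRF2. In shNC, PSMD8 was higher by 0.17 ± 0.051 (edgeR adjusted p = 0.0107), a call lost without shNC DMSO 1 (edgeR adjusted p = 0.0526) or shNC GNA 2 (edgeR adjusted p = 0.0595).

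PSMD6 and PSMD7, both structural lid subunits, departed from the others. PSMD6 stood at 92.3, 101 and 93.1 CPM under DMSO and 78.3, 75.9 and 71.3 under GNA in the control line, and at 82.6, 75.8 and 82.9 (DMSO) and 95.3, 87.7 and 81.9 (GNA) in the knockdown line. PSMD6 fell by 21.4% with GNA in shNC, -0.35 ± 0.064 (edgeR adjusted p = 0.000118), with no overlap, and in shNRF2 its change of 0.13 ± 0.064 (edgeR adjusted p = 0.116) was not called. The difference of the responses was 0.48 ± 0.090 (edgeR adjusted p = 0.00124). PSMD7 measured 218, 225 and 249 CPM in control cells under DMSO and 229.7, 216 and 213 under GNA, against 185, 199.7 and 222 (DMSO) and 229, 217 and 214 (GNA) in knockdown cells. PSMD7 had the smallest change of the cap, 0.12 ± 0.060 (edgeR adjusted p = 0.124) in shNRF2, with a 95% interval of -0.0016 to 0.25, and it was the only one of the 17 cap genes whose difference of responses was not called (0.19 ± 0.085, edgeR adjusted p = 0.192). Every pair of groups overlapped. Under DMSO it was lower in shNRF2, -0.19 ± 0.060 (edgeR adjusted p = 0.0151), a call lost by limma (adjusted p = 0.135) and without shNC DMSO 3, shNRF2 DMSO 1 or shNRF2 DMSO 2 (edgeR adjusted p = 0.0557 to 0.128).

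**Figure D5:**
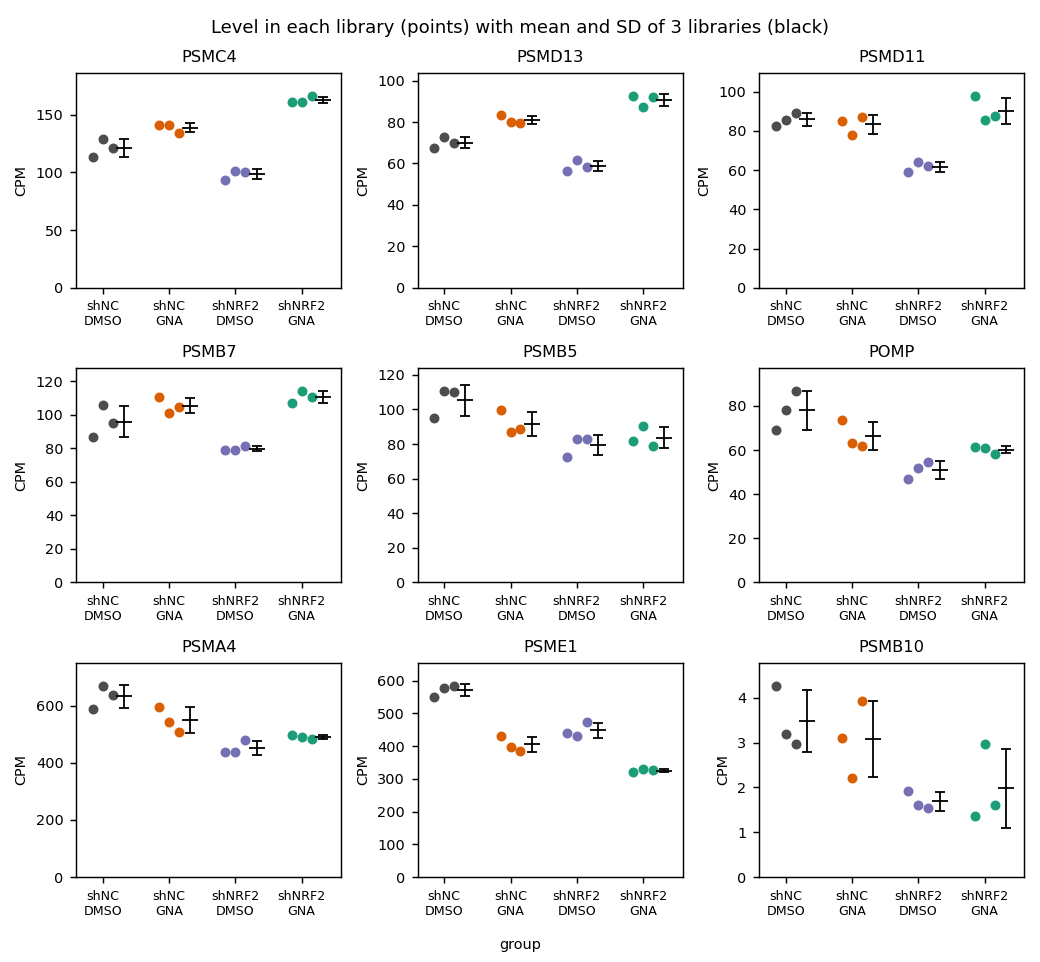
CPM in each library (coloured points) with the mean and SD of 3 libraries (black) for 9 genes, 1 panel each, with groups on the x axis and the y axis from 0. PSMC4 and PSMD13 are highest in shNRF2 GNA, PSMD11, PSMA4 and POMP are lowest in shNRF2 DMSO, and PSME1 falls with GNA in both lines.

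The alpha ring gates entry to the core and had a smaller median change in shNRF2 (0.12) than the beta ring or the cap. PSMA4 (chr15:78540405-78552419, plus strand) was the most abundant alpha ring gene by CPM. For PSMA4, the DMSO libraries read 588, 670.0 and 638 CPM in the control line and 436, 439 and 479.9 in the knockdown line, and the GNA libraries 596, 544 and 507 (control) and 498, 489.5 and 482 (knockdown). All shNC DMSO libraries were above all shNRF2 libraries. The line difference in DMSO was -0.48 ± 0.056 (edgeR adjusted p = 1.26e-07). With GNA it changed by -0.20 ± 0.056 (edgeR adjusted p = 0.00619) in shNC and 0.12 ± 0.056 (edgeR adjusted p = 0.114) in shNRF2, and the difference of the responses was 0.32 ± 0.079 (edgeR adjusted p = 0.0124). The call in shNC was lost without shNC DMSO 2 (edgeR adjusted p = 0.0502) or shNC GNA 3 (edgeR adjusted p = 0.063). It was also lost with library totals (-0.10, edgeR adjusted p = 0.159) and with limma (adjusted p = 0.235). PSMA3 stood at 131, 149 and 129 CPM under DMSO and 115, 110.4 and 97.8 under GNA in the control line, and at 98.5, 92.3 and 113 (DMSO) and 94.5, 98.1 and 88.6 (GNA) in the knockdown line. PSMA3 was lower with GNA in shNC, -0.34 ± 0.072 (edgeR adjusted p = 0.000521), and kept that call in all 16 alternatives tried. In shNRF2 its change was -0.11 ± 0.073 (edgeR adjusted p = 0.263). PSMA7 had the smallest change in shNRF2, 0.036 ± 0.050 (edgeR adjusted p = 0.627), and was lower in shNC, -0.22 ± 0.050 (edgeR adjusted p = 0.00142), a call lost with library totals (edgeR adjusted p = 0.0752) and with limma (adjusted p = 0.111). PSMA5 rose in shNRF2 by 0.20 ± 0.062 (edgeR adjusted p = 0.0142), which was not called without shNRF2 DMSO 1 (edgeR adjusted p = 0.118) or shNRF2 GNA 1 (edgeR adjusted p = 0.0657).

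The 2 alpha ring genes with few counts are given apart. PSMA2 had 7, 9 and 5 counts under DMSO and 18, 15 and 11 under GNA in the control line, and 10, 6 and 4 and 15, 20 and 22 in the knockdown line. The GNA libraries were above the DMSO libraries in both lines, and the change was 1.38 ± 0.43 (edgeR adjusted p = 0.0148) in shNRF2, lost without shNRF2 DMSO 3 (edgeR adjusted p = 0.0739) or shNRF2 GNA 3 (edgeR adjusted p = 0.0508), and 1.05 ± 0.44 (edgeR adjusted p = 0.074) in shNC. PSMA1, with 73 to 108 counts, had libraries that overlapped between treatments in both lines (change in shNRF2 0.10 ± 0.16, edgeR adjusted p = 0.669, 95% interval -0.22 to 0.42).

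Of the catalytic beta subunits, PSMB6 and PSMB7 passed the test with GNA in shNRF2 and PSMB5 did not, a difference between genes that was not tested. PSMB7 (chr9:124353466-124415444, minus strand), the trypsin-like subunit, had the largest rise of the ring. PSMB7 measured 87.1, 106 and 95 CPM in control cells under DMSO and 110.5, 101 and 105 under GNA, against 79.1, 79.2 and 81.6 (DMSO) and 107, 114 and 111 (GNA) in knockdown cells. All shNRF2 GNA libraries were above all DMSO libraries of either line. The change was 0.47 ± 0.063 (edgeR adjusted p = 9.82e-07) in shNRF2 and 0.14 ± 0.062 (edgeR adjusted p = 0.0979) in shNC, and the difference of the responses was 0.33 ± 0.088 (edgeR adjusted p = 0.0196), a call lost by limma (adjusted p = 0.0768) or without shNC DMSO 2, shNC GNA 2, shNRF2 DMSO 2 or shNRF2 GNA 2 (edgeR adjusted p = 0.0509 to 0.0744). For PSMB6, the DMSO libraries read 48.1, 55.5 and 51.4 CPM in the control line and 44.3, 44.6 and 52.6 in the knockdown line, and the GNA libraries 60.8, 56.9 and 55.4 (control) and 62.5, 56.6 and 52.9 (knockdown). PSMB6, the caspase-like subunit, rose in shNRF2 by 0.28 ± 0.078 (edgeR adjusted p = 0.00572), which was not called without shNRF2 GNA 1 (edgeR adjusted p = 0.056), and changed by 0.16 ± 0.076 (edgeR adjusted p = 0.125) in shNC. PSMB5 stood at 95.1, 111 and 110.3 CPM under DMSO and 99.5, 86.8 and 88.8 under GNA in the control line, and at 72.7, 82.8 and 82.6 (DMSO) and 81.8, 90.7 and 78.7 (GNA) in the knockdown line. PSMB5 (chr14:23016543-23035230, minus strand), the chymotrypsin-like subunit that bortezomib and carfilzomib bind, did not pass in shNRF2 (0.079 ± 0.073, edgeR adjusted p = 0.445, 95% interval -0.071 to 0.23). In shNC it was lower, -0.20 ± 0.071 (edgeR adjusted p = 0.0314), with overlapping libraries and a call lost with library totals (edgeR adjusted p = 0.293) or without shNC DMSO 2, shNC DMSO 3, shNC GNA 2 or shNC GNA 3 (edgeR adjusted p = 0.11 to 0.145). The line difference of PSMB5 in DMSO was -0.41 ± 0.072 (edgeR adjusted p = 5.67e-05). The structural beta subunits PSMB2, PSMB3 and PSMB4 rose in shNRF2 by 0.29, 0.29 and 0.34. The calls of PSMB2 and PSMB3 were lost without some single libraries (PSMB2 without shNRF2 DMSO 1, shNRF2 DMSO 3 or shNRF2 GNA 1, edgeR adjusted p = 0.0511 to 0.0726; PSMB3 with DESeq2, adjusted p = 0.0518, or without shNRF2 DMSO 1, shNRF2 DMSO 2 or shNRF2 GNA 2, edgeR adjusted p = 0.0583 to 0.14).

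Among the immunoproteasome genes, PSMB10 (chr16:67934502-67937087, minus strand) had the largest line difference. PSMB10 measured 4.27, 3.19 and 2.97 CPM in control cells under DMSO and 3.09, 2.22 and 3.93 under GNA, against 1.93, 1.61 and 1.53 (DMSO) and 1.36, 2.98 and 1.60 (GNA) in knockdown cells. Its shNRF2 DMSO libraries were below all shNC libraries of either treatment, and the level dropped by 50.9% from shNC DMSO to shNRF2 DMSO, -1.03 ± 0.29 (edgeR adjusted p = 0.00652), and with GNA its libraries overlapped in both lines (-0.17 ± 0.26 in shNC and 0.23 ± 0.31 in shNRF2). It had 18 to 64 counts, and 34.8% of its exon bases are shared with AC040162.1 on the same strand, which had 6 to 21. For PSMB9, the DMSO libraries read 2.48, 3.01 and 2.71 CPM in the control line and 2.63, 2.22 and 2.15 in the knockdown line, and the GNA libraries 1.73, 2.10 and 0.982 (control) and 2.19, 1.52 and 1.05 (knockdown). Its lower level with GNA in shNC, -0.77 ± 0.29 (edgeR adjusted p = 0.0437), was kept in 4 of 16 alternatives, and was not called by DESeq2 (adjusted p = 0.0587) or without shNC DMSO 1, shNC DMSO 2, shNC DMSO 3, shNC GNA 1 or shNC GNA 3 (edgeR adjusted p = 0.0505 to 0.238). In shNRF2 its change was -0.58 ± 0.30 (edgeR adjusted p = 0.144), with overlapping libraries. PSMB8 was not tested. It had 5, 8 and 9 counts under DMSO and 4, 6 and 2 under GNA in the control line, and 3, 4 and 4 and 1, 7 and 7 in the knockdown line.

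Of the assembly factors, POMP (chr13:28659104-28678925, plus strand), which brings beta subunits onto the alpha ring, differed most. POMP stood at 69.1, 78.3 and 86.8 CPM under DMSO and 73.6, 63.3 and 61.8 under GNA in the control line, and at 46.8, 51.7 and 54.4 (DMSO) and 61.5, 60.9 and 58.2 (GNA) in the knockdown line. Every shNRF2 library was below every shNC library. From shNC to shNRF2 it fell by 34.9% under DMSO, -0.62 ± 0.079 (edgeR adjusted p = 6.81e-07), and under GNA the line difference was -0.14 ± 0.078 (edgeR adjusted p = 0.219). With GNA it changed by -0.24 ± 0.077 (edgeR adjusted p = 0.019) in shNC, with overlapping libraries, and by 0.24 ± 0.080 (edgeR adjusted p = 0.0208) in shNRF2, with none, and the difference was 0.48 ± 0.11 (edgeR adjusted p = 0.00788), which limma did not call (adjusted p = 0.0738). The call in shNC was lost without shNC DMSO 3, shNC GNA 2 or shNC GNA 3 (edgeR adjusted p = 0.086 to 0.165), and that in shNRF2 without shNRF2 DMSO 1, shNRF2 GNA 1 or shNRF2 GNA 2 (edgeR adjusted p = 0.0565 to 0.127). The shNC call was also lost with library totals (-0.14, edgeR adjusted p = 0.175) and with limma (adjusted p = 0.276).

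The alpha ring chaperones PSMG1 and PSMG2 work as one pair and PSMG3 and PSMG4 as another. PSMG3 measured 24.5, 25 and 25.9 CPM in control cells under DMSO and 26.3, 24.4 and 21.4 under GNA, against 16.8, 17.9 and 19.4 (DMSO) and 19.5, 16.9 and 16.2 (GNA) in knockdown cells. PSMG3 was lower in shNRF2 under both treatments, -0.48 ± 0.097 (edgeR adjusted p = 0.000311) in DMSO and -0.46 ± 0.097 (edgeR adjusted p = 0.000769) in GNA, with no overlap, and did not pass with GNA in either line. For PSMG1, the DMSO libraries read 24.7, 27.1 and 23.6 CPM in the control line and 22, 23.4 and 22.5 in the knockdown line, and the GNA libraries 24.6, 23.5 and 23.4 (control) and 18.6, 19.1 and 19.1 (knockdown). PSMG1 was lower with GNA in shNRF2, -0.26 ± 0.085 (edgeR adjusted p = 0.0212), which was not called with library totals (edgeR adjusted p = 0.0821) or without shNRF2 DMSO 2 (edgeR adjusted p = 0.069) or shNRF2 GNA 1 (edgeR adjusted p = 0.0628). PSMG4 had the smallest change of this group in shNRF2 (0.0041 ± 0.17, edgeR adjusted p = 0.989, 95% interval -0.34 to 0.35). PSMG2, with 37 to 72 counts, was not called in any comparison. The 19S chaperones PSMD5, PSMD9 and PSMD10, which guide the ATPases into a ring, were not called in any of the 5 comparisons. With GNA in shNRF2, PSMD10 (gankyrin) changed by 0.13 ± 0.072 (edgeR adjusted p = 0.185), PSMD9 by 0.25 ± 0.21 (edgeR adjusted p = 0.389) and PSMD5 by -0.15 ± 0.095 (edgeR adjusted p = 0.236). At an unadjusted p under 0.05, 1 of the 3 was lower in the comparison of the lines under GNA, and with library totals 1 was called higher with GNA in shNRF2.

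Unlike the cap genes that rose, the first 2 activator genes fell with GNA in both lines. PSME1 (chr14:24136158-24138967, plus strand) and PSME2 (chr14:24143362-24147570, minus strand) encode the alpha and beta subunits of the interferon-inducible 11S activator. PSME1 stood at 550.2, 577 and 585 CPM under DMSO and 432, 399 and 385 under GNA in the control line, and at 441, 431 and 474 (DMSO) and 321, 329 and 326 (GNA) in the knockdown line. GNA libraries were below DMSO libraries in both lines, and shNRF2 below shNC in both treatments. With GNA it fell by 29% in shNC, -0.49 ± 0.049 (edgeR adjusted p = 1.14e-08), and fell by 27.5% in shNRF2, -0.46 ± 0.049 (edgeR adjusted p = 2.4e-08). The difference of these responses was 0.031 ± 0.070 (edgeR adjusted p = 0.869), with a 95% interval of -0.11 to 0.17. PSME2 measured 139, 146 and 152 CPM in control cells under DMSO and 113, 105 and 104 under GNA, against 110.0, 124 and 131 (DMSO) and 87.9, 95.3 and 84.9 (GNA) in knockdown cells. PSME2 changed by -0.44 ± 0.063 (edgeR adjusted p = 4.37e-06) and -0.44 ± 0.064 (edgeR adjusted p = 3.39e-06), with a difference of -0.0059 and an interval of -0.19 to 0.18. The line differences were -0.35 and -0.32 for PSME1 and -0.26 and -0.26 for PSME2 in DMSO and GNA. All of these calls held in each of the 16 alternatives tried. PSME3 encodes the nuclear activator of the same family. It was lower in shNC, -0.21 ± 0.048 (edgeR adjusted p = 0.00161), though not with library totals (edgeR adjusted p = 0.091), and changed by -0.10 ± 0.048 (edgeR adjusted p = 0.136) in shNRF2. PSME4 (PA200) and PSMF1 (PI31) changed in shNRF2 by 0.091 and 0.12 and in shNC by -0.15 and -0.067 (PSMF1 0.036 with library totals), and were not called by edgeR. limma and library totals each called 1 activator gene higher in shNRF2.

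Proteins that bind the proteasome or bring substrates to it were listed beside the subunits (17 genes). With GNA 8 were higher and 2 lower in each line (47.1% and 11.8%, where 14.6% and 16.1% of all tested genes were called in shNC, and 16.7% and 17% in shNRF2). In shNC, DESeq2 called 5 higher and library totals 10. In shNRF2, neither limma nor library totals called any lower, edgeR had 2 at an unadjusted p under 0.05 and DESeq2 called 2. ZFAND2A (AIRAP), a stress-induced protein of the 19S cap, had the largest change. For ZFAND2A, the DMSO libraries read 11.1, 10.7 and 11.1 CPM in the control line and 12.2, 12.9 and 11.3 in the knockdown line, and the GNA libraries 24, 21.5 and 20.6 (control) and 37.8, 39 and 40.5 (knockdown). The groups rose with GNA without overlap, by 1.01 ± 0.094 (edgeR adjusted p = 3.58e-09) in shNC and 1.68 ± 0.090 (edgeR adjusted p = 3.18e-14) in shNRF2, and the difference was 0.68 ± 0.13 (edgeR adjusted p = 0.0016). RAD23B, a ubiquitin shuttle, rose in shNC by 0.47 ± 0.067 (edgeR adjusted p = 4.19e-06) and was not called in shNRF2 (0.064 ± 0.068, edgeR adjusted p = 0.511), with a difference of -0.40 ± 0.096 (edgeR adjusted p = 0.0094). TXNL1, a thioredoxin-like protein that binds the cap, rose in shNRF2 by 0.48 ± 0.062 (edgeR adjusted p = 5.61e-07), changed by -0.043 ± 0.061 (edgeR adjusted p = 0.643) in shNC (0.060 with library totals), and differed by 0.53. Also higher were ECPAS, which links cap and core, in both lines (0.35 in shNC and 0.42 in shNRF2), the ubiquitin receptor ADRM1 (0.25 and 0.51), and PITHD1 in shNC (0.63 ± 0.22, edgeR adjusted p = 0.0326). PITHD1 ranged from 20.6 to 39.8 CPM within shNC DMSO, and its call was not made by DESeq2 (adjusted p = 0.28), nor by edgeR without shNC DMSO 2, shNC DMSO 3, shNC GNA 2 or shNC GNA 3 (edgeR adjusted p = 0.0745 to 0.174). Lower were the deubiquitinase UCHL5 (-0.38 and -0.20), the small lid subunit SEM1 in shNC (-0.33 ± 0.069, edgeR adjusted p = 0.000471, and 0.0621 with limma), and the ligase UBE3C in shNRF2 (-0.16 ± 0.059, edgeR adjusted p = 0.0416), whose call was lost with library totals (edgeR adjusted p = 0.234) and without any one of the 5 libraries shNRF2 DMSO 1, shNRF2 DMSO 2 and shNRF2 GNA 1 to 3 (edgeR adjusted p = 0.0768 to 0.145). The UCHL5 call in shNRF2 was lost with library totals (edgeR adjusted p = 0.0851) and without shNRF2 DMSO 3 (edgeR adjusted p = 0.102) or shNRF2 GNA 3 (edgeR adjusted p = 0.0637).

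Between the lines, 1 of the 17 was higher and 6 lower in shNRF2 under DMSO (5.88% and 35.3%, against 16.8% and 18.3% of all tested genes), and 4 were higher and 4 lower under GNA (23.5% and 23.5%, against 12.8% and 13.3%). Under DMSO the falls were led by PITHD1 (-0.65), AKIRIN2, a factor of nuclear proteasome import (-0.46), TXNL1 (-0.42) and SEM1 (-0.40). The fall of PITHD1 was not called by DESeq2 (adjusted p = 0.217), and was -0.30 without shNC DMSO 1 (edgeR adjusted p = 0.363) and was also not called without shNRF2 DMSO 2 or shNRF2 DMSO 3. Under GNA, ZFAND2A (0.83), ADRM1 (0.31) and the shuttle UBQLN1 (0.30) were among those higher in shNRF2, and PITHD1 (-1.01), RAD23B (-0.54), UBE3C (-0.37) and SEM1 (-0.19) lower. DESeq2 did not call PITHD1 under GNA (-1.02, adjusted p = 0.0557). The SEM1 call was lost by limma (adjusted p = 0.166) and without shNC GNA 1 (log2 change -0.10, edgeR adjusted p = 0.328), shNRF2 GNA 1, shNRF2 GNA 2 or shNRF2 GNA 3.

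Genes for NRF1 and its release and processing formed the other list (11 genes). With GNA 7 were higher and 1 lower in shNC (63.6% and 9.09%, against 14.6% and 16.1% of all tested genes). In shNRF2, 7 were higher and 0 lower (63.6% and 0%, against 16.7% and 17%), and no gene was lower at an unadjusted p under 0.05 or by DESeq2 or limma. NFE2L1 stood at 416, 421 and 449 CPM under DMSO and 558, 585 and 625 under GNA in the control line, and at 505, 494 and 473 (DMSO) and 709.6, 720.0 and 709 (GNA) in the knockdown line. NFE2L1 rose with GNA in both lines without overlap, by 0.46 ± 0.048 (edgeR adjusted p = 2.6e-08) in shNC and 0.54 ± 0.048 (edgeR adjusted p = 7.47e-10) in shNRF2, and the difference of 0.080 ± 0.067 (edgeR adjusted p = 0.574) was not called. It was higher in shNRF2 than in shNC by 0.19 ± 0.048 (edgeR adjusted p = 0.00217) in DMSO and 0.27 ± 0.047 (edgeR adjusted p = 7.2e-05) in GNA. Any link between its RNA level and that of the proteasome genes was not tested. UFD1, a cofactor of VCP, had its lowest libraries in shNRF2 DMSO and its highest in shNRF2 GNA. UFD1 measured 51.3, 50.3 and 48.2 CPM in control cells under DMSO and 58.7, 53.8 and 54.9 under GNA, against 37.5, 36.6 and 41.9 (DMSO) and 62.3, 66 and 62.5 (GNA) in knockdown cells. It rose by 0.72 ± 0.067 (edgeR adjusted p = 2.19e-09) in shNRF2 and changed by 0.16 ± 0.066 (edgeR adjusted p = 0.0672) in shNC, with a difference of 0.56 ± 0.094 (edgeR adjusted p = 0.00034). NPLOC4, which pairs with UFD1, rose in both lines (0.52 and 0.65). NGLY1, the enzyme that deglycosylates NRF1, rose by 0.53 ± 0.081 (edgeR adjusted p = 7.73e-06) in shNRF2. It was also called higher in shNC, and its difference of the responses was not called. DESeq2 did not make the shNC call (0.22, adjusted p = 0.0546). That call was also lost without shNC DMSO 2, shNC DMSO 3, shNC GNA 1 or shNC GNA 2 (edgeR adjusted p = 0.0631 to 0.195). In shNC the ligase SYVN1 and the VCP adaptor FAF2 also rose (0.48 and 0.30); the SYVN1 call was lost without shNC DMSO 3 (edgeR adjusted p = 0.0662). VCP was lower in shNC, -0.19 ± 0.050 (edgeR adjusted p = 0.0051), though not with library totals (edgeR adjusted p = 0.205), and differed between the responses by 0.27 ± 0.071 (edgeR adjusted p = 0.0169), as did UBXN4 (0.24 ± 0.062, edgeR adjusted p = 0.0183) and, in the other direction, SEL1L (-0.22 ± 0.065, edgeR adjusted p = 0.0428). The difference was not called by limma (adjusted p = 0.0807) or without shNRF2 GNA 1 for VCP (edgeR adjusted p = 0.0611), without shNC GNA 3, shNRF2 DMSO 2 or shNRF2 GNA 1 for UBXN4 (edgeR adjusted p = 0.0503 to 0.0577), and, for SEL1L, without any library other than shNC DMSO 1 and shNC GNA 1 (edgeR adjusted p = 0.0583 to 0.121).

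Between the lines, 4 of the 11 were higher and 4 lower in shNRF2 under DMSO (36.4% and 36.4%, against 16.8% and 18.3% of all tested genes), and 6 higher and 0 lower under GNA (54.5% and 0%, against 12.8% and 13.3%). Of the 6, NPLOC4 (0.19 ± 0.072, edgeR adjusted p = 0.0466) was not called by DESeq2 (adjusted p = 0.064) or limma (adjusted p = 0.0992), and without shNC GNA 1 it was 0.078 (edgeR adjusted p = 0.39); it was also lost without shNRF2 GNA 1, shNRF2 GNA 2 or shNRF2 GNA 3. UFD1 (0.19 ± 0.065, edgeR adjusted p = 0.0306) was lost without shNC GNA 2, shNC GNA 3, shNRF2 GNA 1, shNRF2 GNA 2 or shNRF2 GNA 3 (edgeR adjusted p = 0.052 to 0.126). SYVN1 (1.05 in DMSO and 0.66 in GNA) and its partner SEL1L (0.57 and 0.35) were higher in shNRF2 in both treatments. Among those lower under DMSO were UFD1 (-0.37), VCP (-0.22) and UBXN4 (-0.17). No gene of the list was lower under GNA at an unadjusted p under 0.05 or by DESeq2 or limma.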

How the data were processed

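The labels give total RNA sequenced on an Illumina machine, in 4 groups of 3 libraries. The deposited gene counts and FPKM were made by the authors. The submitters' processing notes name the build GRCh38 and DESeq2 without its role, and no aligner, counter, strand setting or annotation is named (not given in the sources used here). Those FPKM, as deposited, equalled counts divided by a fixed length per gene and the library total for 12835 of 12835 genes checked (tolerance 0.001).

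Counts were filtered with filterByExpr (minimum 10 counts, 15 in total), scaled by TMM and tested with edgeR 4.0.16 (quasi-likelihood, all 12 libraries in 1 fit, 8 residual degrees of freedom, Benjamini-Hochberg over 15653 genes, R 4.3.3). The 5 tests compared GNA with DMSO within a line, the lines within a treatment, and the response to GNA between lines. Simulated counts with known changes were used to test the fit. Alternatives were other scalings and filters, DESeq2 1.42.0, limma 3.58.1 on log2(FPKM + 1) and log2(FPKM + 0.1), a replicate block, only the groups compared, and each library left out in turn. Named genes were the active-site subunits, POMP, members with under 10 counts, up to 6 called members with the largest rise and fall per comparison, those with the largest and smallest change with GNA in shNRF2 per subcomplex, and of the related lists the 4 largest called changes each way. The members and lists were chosen with earlier results of these data known. Positions are from GENCODE 29 and promoters from RefSeq. Intervals cover the spread between libraries. Single-cell data named in the design were not analysed here. Some results for genes of the related lists are not reported here.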

Additional observations from a re-analysis of the deposited data

Results flagged for a closer look

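For 21 proteasome genes the change with GNA differed between the lines by edgeR's interaction test (shNRF2 minus shNC, log2 scale), each with the higher change in shNRF2. Among the ATPases the differences were 0.33 for PSMC1, 0.42 for PSMC2, 0.30 for PSMC3, 0.53 for PSMC4, 0.40 for PSMC5 and 0.42 for PSMC6. Those of the other base genes were 0.31 for PSMD1, 0.37 for PSMD2 and 0.28 for PSMD4. In the lid they were 0.42 for PSMD3, 0.48 for PSMD6, 0.32 for PSMD8, 0.59 for PSMD11, 0.53 for PSMD12, 0.42 for PSMD13 and 0.41 for PSMD14. In the 20S core and its assembly they were 0.32 for PSMA4, 0.30 for PSMA5, 0.25 for PSMA7, 0.33 for PSMB7 and 0.48 for POMP.

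Of these 21 calls 13 held in all 21 alternatives. The calls of PSMA4, PSMA5, PSMA7, PSMB7, PSMC1, PSMC3, PSMD8 and POMP were lost with limma. That of PSMA5 was also lost without shNC DMSO 3, shNC GNA 2, shNC GNA 3, shNRF2 DMSO 1, shNRF2 DMSO 2, shNRF2 GNA 1 or shNRF2 GNA 2 (edgeR adjusted p = 0.0564 to 0.111), and that of PSMA7 without shNC DMSO 2, shNC GNA 2, shNC GNA 3, shNRF2 DMSO 1, shNRF2 DMSO 2, shNRF2 GNA 2 or shNRF2 GNA 3 (edgeR adjusted p = 0.0522 to 0.0958).

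Of the related genes, the differences were 0.68 for ZFAND2A, 0.53 for TXNL1, 0.56 for UFD1, 0.27 for VCP and 0.24 for UBXN4. They were -0.40 for RAD23B and -0.22 for SEL1L, whose changes were lower in shNRF2. For NFE2L2, the hairpin's target, the difference was -0.30. It was not called by limma (adjusted p = 0.0818) or without any library other than shNC DMSO 1, shNC GNA 2 and shNRF2 DMSO 1 (edgeR adjusted p = 0.0554 to 0.137).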

How the results depend on the processing

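No called value reversed direction under any alternative run, but small values that were not called did. With GNA in the control line 12 proteasome genes changed sign with library totals and 12 with limma, all of them not called with TMM, and 17 did so in at least 1 alternative. In the control line the counts of genes changed by GNA moved most, from 5 higher and 11 lower. They were 13 and 4 with library totals, 11 and 5 with limma on log2(FPKM + 1) and 12 and 4 with limma on log2(FPKM + 0.1), and 8 were higher with upper-quartile factors. Leaving out 1 library gave 3 to 8 higher and 7 to 12 lower. For shNRF2 against shNC under GNA it gave 3 to 7 higher. The difference of the responses was called for 13 genes with limma at either pseudocount. The cause was not tested. Calls that held in every alternative numbered 7 of 16 for GNA in shNC, 19 of 26 in shNRF2, 26 of 33 for the lines under DMSO, 7 of 13 under GNA and 13 of 21 for the difference.

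Libraries that share a replicate number did not deviate together (0 of 18 pairs had a correlation over 0.1, range -0.04356 to 0.02747), and 2 of 12 libraries correlated best with their own number, so the number was not taken as a pairing. With a replicate block the counts were 5 higher and 11 lower in shNC, 23 and 3 in shNRF2, 0 and 33 under DMSO, 8 and 5 under GNA, and 21 and 0 for the difference. The genes were not all the same. In shNC the block lost PSMC6 (edgeR adjusted p = 0.0521) and gained PSMD3, and under GNA it lost PSMA3 (edgeR adjusted p = 0.052) and gained PSMD8. PSMA2, PSMB8, PSMB9 and PSMB10 had 1 to 64 counts per library, which limited the precision of their changes. With 3 libraries a group and 1 line per hairpin, no value separates the hairpin from the line.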

Other observations

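Some proteasome genes have processed copies elsewhere in the genome that were counted as genes of their own. PSMC1P1 had 400 to 674 counts per library, 8.99% of those of PSMC1, and PSMA6P1 had 25 to 52, 6.79% of those of PSMA6. How reads shared by a gene and its copy were assigned is not given in the sources used here, so the levels of PSMC1 and PSMA6 are uncertain to that extent.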
